A study of Mus musculus with 4 samples.

Results

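The genes described here are 10 that encode tektins and other microtubule inner proteins, the proteins that line the inside of the doublet microtubules of motile cilia and sperm tails. They were taken by name, namely Tekt1, Tekt2, Tekt3, Tekt4, Efhc2, Cfap45, Cfap52, Cfap53, Mns1 and Enkur, and all 10 were found among 30722 genes named on the array. Transcript levels were measured on 1-colour Affymetrix arrays in whole trachea and whole oviduct of mice of a mixed C57BL/6 x 129 background. There were 4 groups with 1 array each: the trachea of a male mouse labelled null for Gemc1, the trachea of a wild-type (WT) male, both 39 days old, the oviduct of a female labelled null for Gemc1, and the oviduct of a WT female, both 65 days old. Gemc1, whose current symbol is Gmnc, encodes a relative of geminin that is known to start the multiciliated cell programme, and per its title the series asks what part it plays there. The sources used here do not give the deleted part of the gene or whether a sample pools animals. Tissue, sex and age change together, so they cannot be told apart.

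A motile cilium is built on doublet microtubules, each a complete A-tubule joined to an incomplete B-tubule. Filamentous and globular proteins bind the inner walls of both tubules and are known to keep the doublet stable while dynein motors bend it. Tektins are coiled-coil proteins that form filaments inside the A-tubule. Efhc2 belongs to a family with EF-hand and DM10 domains, first described in green algae as ribbon proteins of the doublet. Cfap53 and Mns1 encode coiled-coil proteins of the A-tubule lumen, while Cfap45, Cfap52 and Enkur encode proteins of the B-tubule lumen. Multiciliated cells of the airway and the oviduct use these proteins, and so do sperm.

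All levels below are log2 signals after RMA, a method that corrects background, equalises the arrays and summarises the probes of a probe set. Each difference subtracts the WT level from the level labelled Gemc1-null within a tissue, on the log2 scale, so that negative values mean lower in the tissue labelled null. With 1 array per group a difference has no error, no replicate check and no test, and the number of arrays limits the precision of every value. A level below the median of the 5222 negative-control probe sets of its array is called below background here. That median was 5.74 for trachea labelled Gemc1-null, 5.98 for WT trachea, 5.79 for oviduct labelled Gemc1-null and 5.77 for WT oviduct. Where the dimmer array was below background, the fold is a bound against that median and is written "at least".

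The targeted gene and the tissue markers were examined before the 10 genes. Gmnc (NCBI gene 239789) stood at 4.63 in trachea labelled Gemc1-null and 5.90 in WT trachea, both below background. In oviduct it stood at 8.86 on the array labelled Gemc1-null and 6.11 on the WT array, which is 6.72-fold higher and goes against the label. A probe set outside the deleted part checks nothing, so directions rest on the labels. Ovgp1, the oviductal glycoprotein, stood at 12.84 on the oviduct array labelled Gemc1-null and 12.79 on the WT oviduct array. Scgb1a1, the airway secretoglobin, stood at 8.39 in trachea labelled Gemc1-null and 12.74 in WT trachea.

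The promoters of these genes are shown because the genes were lower together and because RFX factors, which bind the X-box, are known regulators of cilia genes. Promoter entries from RefSeq (GRCm38.p6) were searched for 9 of the genes, 12 entries in all. Cfap53 was left out of this search, while the shares over all promoters keep genes of its chromosome. The window searched was the 250 bases before each annotated start. Both strands were searched for the RFX half-site GTTGCC, for an RFX inverted repeat (GTNNCC, 0 to 3 bases, then GGNNAC) and for the forkhead site TGTTTAC. After the sequences had been read, an X-box pattern was added: GTN, then A or G, then C, followed by 2 to 5 bases and the reverse complement of those letters. This added X-box and the RFX inverted repeat differ in fixed letters and spacing, and neither contains the other. Below are the 100 bases before the start of 7 of the genes, 5′ to 3′ on the gene's strand, with matches to any of these patterns in capitals.
Tekt1 (chr11:72361883-72361982, minus strand): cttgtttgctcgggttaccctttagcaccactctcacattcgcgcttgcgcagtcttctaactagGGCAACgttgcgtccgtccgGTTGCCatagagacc
Tekt2 (chr4:126325689-126325788, minus strand): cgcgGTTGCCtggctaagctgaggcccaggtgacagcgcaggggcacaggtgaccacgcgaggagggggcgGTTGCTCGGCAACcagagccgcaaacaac
Tekt4 (chr17:25471490-25471589, plus strand): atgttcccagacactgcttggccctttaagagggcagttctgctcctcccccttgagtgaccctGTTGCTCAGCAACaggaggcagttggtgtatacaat
Cfap45 (chr1:172521030-172521129, plus strand): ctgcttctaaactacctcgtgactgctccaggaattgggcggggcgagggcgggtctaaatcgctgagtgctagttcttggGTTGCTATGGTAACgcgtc
Cfap52 (chr11:67965643-67965742, minus strand): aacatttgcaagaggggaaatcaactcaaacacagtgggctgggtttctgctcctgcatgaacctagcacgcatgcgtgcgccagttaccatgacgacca
Enkur (chr2:21205366-21205465, minus strand): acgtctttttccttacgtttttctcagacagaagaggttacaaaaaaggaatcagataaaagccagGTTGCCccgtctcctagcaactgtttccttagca
Mns1 (chr9:72438429-72438528, plus strand): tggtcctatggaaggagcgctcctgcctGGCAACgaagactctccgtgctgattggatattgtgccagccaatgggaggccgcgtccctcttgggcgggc

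The RFX half-site was present in the promoters of 4 of the 9 genes, Tekt1, Tekt2, Mns1 and Enkur, or 5 of 12 entries, beside 10.4% of all 32851 promoter entries of the same length. The added X-box was present for 3 genes, Tekt2, Tekt4 and Cfap45 (4 of 12 entries, beside 5.13% of all). In Tekt2 it overlaps a half-site, and the 3 matches began 29 bases before the start in Tekt2, 36 in Tekt4 and 19 in Cfap45. Overlapping windows of Tekt2 hold the same matches and count as separate entries in the 5 of 12 and the 4 of 12. The RFX inverted repeat was found only in Tekt4, 160 bases before its start and so outside the stretch shown (beside 3.21% of all entries). The forkhead site was found only in Tekt3, 174 bases before its start (beside 3.17% of all). The windows of Cfap52, the gene with the largest differences, and Efhc2 held none of these letter patterns. A match is a description of the letters and not a measured binding site, and the added X-box was chosen with these sequences in view.

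Every one of the 10 genes was lower on the array labelled Gemc1-null than on the WT array in both tissues, and the order of the arrays was nearly the same for each. Differences ran between -2.16 and -0.37 in trachea and between -2.94 and -0.51 in oviduct. In all 10 genes the WT oviduct array was highest, the WT trachea array next, and both arrays labelled Gemc1-null lay below. That order held for 3.96% of all 30722 genes. All 4 levels of Efhc2 and 3 of the 4 of Tekt3 were below background, so the order of their arrays is not a measured one. Differences below 0 in both tissues were found for 18% of all genes. No error can be attached to neighbours in this order, since each stands on 1 array.

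**Figure D1:**
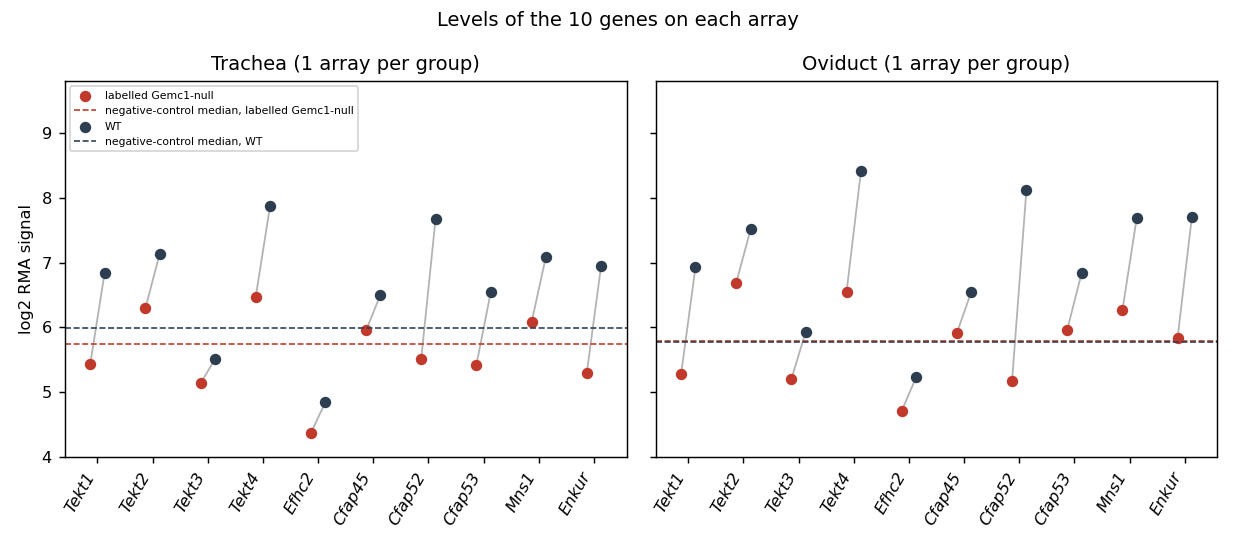
Log2 RMA signal of the 10 genes in trachea (left panel) and oviduct (right panel), with 1 point per array, red for the array labelled Gemc1-null and dark for WT, joined by a line for each gene. Dashed lines mark the negative-control median of each array; every red point lies below its WT partner, and Efhc2 lies under the dashed lines in both tissues.

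Among the tektins, Tekt4 and Tekt1 differed by more than 2-fold in both tissues. Tekt4 (NCBI gene 71840), which in mice is known for its role in sperm motility, stood at 6.47 in trachea labelled Gemc1-null and 7.88 in WT trachea. In oviduct it stood at 6.55 on the array labelled Gemc1-null and 8.41 on the WT array. It was thus 2.65-fold lower in trachea and 3.61-fold lower in oviduct, and all 4 levels were above background. Tekt1 (NCBI gene 21689) stood at 5.43 in trachea labelled Gemc1-null and 6.84 in WT trachea. In oviduct Tekt1 stood at 5.28 on the array labelled Gemc1-null and 6.93 on the WT array. Both arrays labelled Gemc1-null were below background for this gene, which gives at least 2.14-fold lower in trachea and at least 2.20-fold lower in oviduct. Its levels on the WT arrays differed by only 0.09 between oviduct and trachea.

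Tekt2 and Tekt3, which in mice are known for roles in sperm flagella, differed by less than 2-fold. Tekt2 (NCBI gene 24084) stood at 6.30 in trachea labelled Gemc1-null and 7.14 in WT trachea, and at 6.69 in oviduct labelled Gemc1-null and 7.51 in WT oviduct. Its differences of -0.84 and -0.82 were close to each other, and a level above background was left on both arrays labelled Gemc1-null. A second probe set annotated to Tekt2, but to 2 gene identifiers, went the other way. It stood at 6.04 in trachea labelled Gemc1-null and 5.69 in WT trachea, and at 6.14 in oviduct labelled Gemc1-null and 5.80 in WT oviduct. The mean of both probe sets gave Tekt2 differences of -0.25 in trachea and -0.24 in oviduct. Tekt3 (NCBI gene 71062) stood at 5.14 in trachea labelled Gemc1-null and 5.51 in WT trachea, both below background. In oviduct Tekt3 stood at 5.21 on the array labelled Gemc1-null and 5.94 on the WT array, the only Tekt3 level above background, which gives at least 1.11-fold lower.

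Of the A-tubule lumen genes outside the tektins, Mns1 was lower by more than 2-fold in both tissues and Cfap53 in trachea. Mns1 (NCBI gene 17427), named as a meiotic nuclear structural protein and known for cilia and sperm tail assembly in mice, stood at 6.08 in trachea labelled Gemc1-null and 7.09 in WT trachea. In oviduct it stood at 6.27 on the array labelled Gemc1-null and 7.69 on the WT array. It was 2.02-fold lower in trachea, just inside the 2-fold limit, and 2.68-fold lower in oviduct. Cfap53 (NCBI gene 74453), which is known from human laterality disorders, stood at 5.42 in trachea labelled Gemc1-null and 6.54 in WT trachea. The Cfap53 level in trachea labelled Gemc1-null was below background, so the measured difference of -1.12 becomes at least 1.74-fold lower. In oviduct Cfap53 stood at 5.97 on the array labelled Gemc1-null and 6.84 on the WT array, 1.83-fold lower. Efhc2 (NCBI gene 74405), linked to the inner wall of the doublet, stood at 4.37 in trachea labelled Gemc1-null and 4.84 in WT trachea. In oviduct Efhc2 stood at 4.72 on the array labelled Gemc1-null and 5.23 on the WT array. All 4 Efhc2 levels were below background, so no fold is given for it.

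The B-tubule lumen genes held both the largest and some of the smallest differences. Cfap52 (NCBI gene 71860), a WD-repeat protein near the junction of the tubules, stood at 5.52 in trachea labelled Gemc1-null and 7.67 in WT trachea. In oviduct Cfap52 stood at 5.18 on the array labelled Gemc1-null and 8.12 on the WT array. Both arrays labelled Gemc1-null were below background, which gives at least 3.81-fold lower in trachea and at least 5.02-fold lower in oviduct. Its measured difference of -2.94 in oviduct ranked 53 from the lowest among 19729 genes, and that of -2.16 in trachea ranked 496 among 20177. Enkur (NCBI gene 71233), a calmodulin-binding protein first described in mouse sperm, stood at 5.29 in trachea labelled Gemc1-null and 6.94 in WT trachea. In oviduct Enkur stood at 5.84 on the array labelled Gemc1-null and 7.71 on the WT array. It was at least 2.30-fold lower in trachea and 3.66-fold lower in oviduct, where the level labelled Gemc1-null lay just above background. Cfap45 (NCBI gene 71870), a coiled-coil protein, stood at 5.95 in trachea labelled Gemc1-null and 6.50 in WT trachea. In oviduct Cfap45 stood at 5.92 on the array labelled Gemc1-null and 6.55 on the WT array. It was 1.46-fold lower in trachea and 1.55-fold lower in oviduct.

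Counted by size, 6 of the 10 had measured levels at least 2-fold lower in trachea, Tekt1, Tekt4, Cfap52, Cfap53, Mns1 and Enkur, and 0 were higher. Of the 20177 genes that reached the array median on at least 1 trachea array, 7.77% were lower by that much and 6.31% higher. In oviduct 5 of 10 passed 2-fold on the lower side, the same genes without Cfap53, and 0 were higher. Of 19729 genes there, 2.76% were lower by that much and 0.826% higher. At 1.5-fold 7 of the 10 were lower in trachea, beside 13.4% of genes, and 9 in oviduct, beside 5.25%. The 9 include Tekt3, which did not reach the array median, and 8 of the 8 genes that did. At 3-fold the measured differences of 2 were lower in trachea, Cfap52 and Enkur, beside 4.35% of genes, and of 4 in oviduct, beside 1.36%. With background as a floor, 3-fold was passed by 1 gene in trachea, Cfap52, and by 3 in oviduct, Tekt4, Cfap52 and Enkur. The same 5 genes were lower in both tissues, beside 1.31% of the 18894 genes that reached the array median in both. The median difference of the 10 was -1.07 in trachea and -1.15 in oviduct, beside 0.03 and 0.05 over all genes that reached the median. Tekt3 and Efhc2 did not reach the array median in either tissue, so 8 of the 10 passed that filter. Of these, Tekt1, Cfap52, Cfap53 and Enkur reached it on WT arrays only, and in oviduct so did Cfap45. For these genes the lower level and the passing of the filter are linked. Counted against background as a floor, 5 genes passed 2-fold in trachea, and Cfap53 was the one lost. When the arrays were instead aligned on their negative-control medians, an alternative chosen after the data were seen, only 4 genes passed 2-fold in trachea, Tekt1, Tekt4, Cfap52 and Enkur. Shares of all genes were not computed with the floor or with this alignment.

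**Figure D2:**
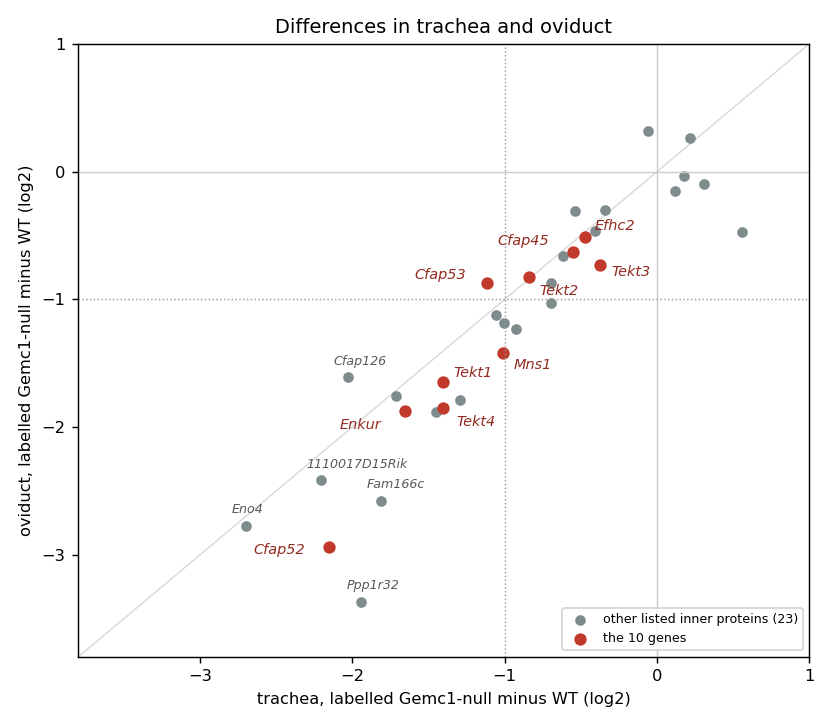
Difference in trachea (horizontal axis) and in oviduct (vertical axis), array labelled Gemc1-null minus WT on the log2 scale, for the 10 genes in red and the 23 measured genes of the list of other inner proteins in grey. Of the grey points 5 are named, those among the 4 largest differences in at least 1 tissue. Dotted lines mark a 2-fold lower level and the diagonal marks equal differences; the red points lie below 0 on both axes, with Cfap52 the furthest, at -2.16 and -2.94.

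The 10 genes had higher levels in WT oviduct than in WT trachea. The difference of WT oviduct minus WT trachea was between 0.04 and 0.76, with a median of 0.41, beside a median of 0.02 over the genes that reached the array median in both tissues. A higher level in WT oviduct was found for 60.1% of all genes. Enkur and Mns1 had the largest such differences (0.76 and 0.60), Cfap45 and Tekt1 the smallest (0.04 and 0.09). On the arrays labelled Gemc1-null, 7 of the 10 were higher in oviduct than in trachea, and Tekt1, Cfap45 and Cfap52 were not. The genotype difference lay further below 0 in oviduct than in trachea for 8 of the 10, all but Tekt2 and Cfap53. Among the 8 that reached the array median in both tissues it did so for 6, beside 33.2% of the genes that were below 0 and reached it in both. The gap between the tissues was largest for Cfap52 (-0.78) and was not tested for any gene. In whole tissue, fewer multiciliated cells, less RNA per cell and a different mix of tissue in the sample cannot be told apart.

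How much signal was left on the arrays labelled Gemc1-null differed among the genes. In trachea 6 of the 10 were below background on that array, beside 2 on the WT array. In oviduct 4 were below background on the array labelled Gemc1-null, beside 1 on the WT array. The share of all genes below background was not computed. The cut-off differs between the trachea arrays, 5.74 for the one labelled Gemc1-null and 5.98 for WT. Tekt2, Tekt4, Mns1 and Cfap45 stayed above background on both arrays labelled Gemc1-null. Tekt4 lay 0.73 above the negative-control median in trachea labelled Gemc1-null and 1.89 above it in WT trachea. In oviduct Tekt4 exceeded it by 0.76 under the Gemc1-null label and by 2.64 in WT. A probe set's own background can differ from this median, so a level above it is not shown to be specific signal.

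The 2 tissues were then joined in 1 fit of the genotype difference. It used limma with tissue as a block, 2 arrays per genotype and 1 residual degree of freedom. That residual is the disagreement of the genotype difference between the tissues, which also differ in sex and age. The SEs and p-values of the fit therefore do not measure variation between mice of a group. Each SE combines that gene's 1 residual degree of freedom with a prior variance estimated over all genes tested and worth 1.77 degrees of freedom. All 8 genes tested had estimates below 0, from -2.55 (SE 0.278) for Cfap52 to -0.59 (SE 0.150) for Cfap45. Enkur, at -1.76 (SE 0.162), had the lowest limma adjusted p of 0.558. The limma adjusted p-values of the 8 ran up to 0.830, so none passed Benjamini-Hochberg at 0.05, and neither did any of the 21012 genes tested (0%). All 8 had an unadjusted limma p under 0.05, as did 2.69% of all genes on the lower side. Among the 8, Tekt1, Cfap52, Cfap53 and Enkur entered the fit through their WT arrays only, so their lower levels and their entry are linked. Background on the arrays labelled Gemc1-null limits the estimates and SEs of Tekt1, Cfap52, Cfap53 and Enkur. With arrays aligned on the negative-control median 7 of the 8 had an unadjusted limma p under 0.05.

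Other inner proteins of the doublet were described from a list of 35 genes, of which 23 were measured and the others were not analysed here. At least 2-fold lower were 10 of the 23 in trachea and 12 in oviduct, with 0 higher in either, and 10 were lower in both. Among all genes that reached the array median those shares were 7.77% in trachea, 2.76% in oviduct and 1.31% in both. Of the 23, 21 reached the array median in each tissue. Among the genes counted as lower, Efhb, Efcab6, Cfap161, Ppp1r32 and Eno4 reached it on WT arrays only, and in oviduct so did Spaca9. For these genes the lower level and the passing of the filter are linked. With background as a floor, 8 of the 23 passed in trachea, 11 in oviduct and 8 in both. The shares of all genes with that floor were not computed. The medians were -0.70 in trachea and -1.03 in oviduct. Eno4, an enolase of the sperm tail, stood at 5.44 in trachea labelled Gemc1-null and 8.14 in WT trachea, and was at least 5.27-fold lower. In oviduct Eno4 stood at 5.92 on the array labelled Gemc1-null and 8.69 on the WT array, 6.84-fold lower. Ppp1r32, now called Saxo4, stood at 5.77 in trachea labelled Gemc1-null and 7.71 in WT trachea, 3.84-fold lower. In oviduct Ppp1r32 stood at 5.70 on the array labelled Gemc1-null and 9.07 on the WT array, at least 9.69-fold lower. Fam166c differed by -1.81 in trachea and -2.58 in oviduct. 1110017D15Rik, listed in RefSeq with the synonym Smrp1, differed by -2.20 in trachea and -2.42 in oviduct. Cfap126, known for basal body positioning in multiciliated cells, differed by -2.03 in trachea and -1.61 in oviduct.

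**Figure D3:**
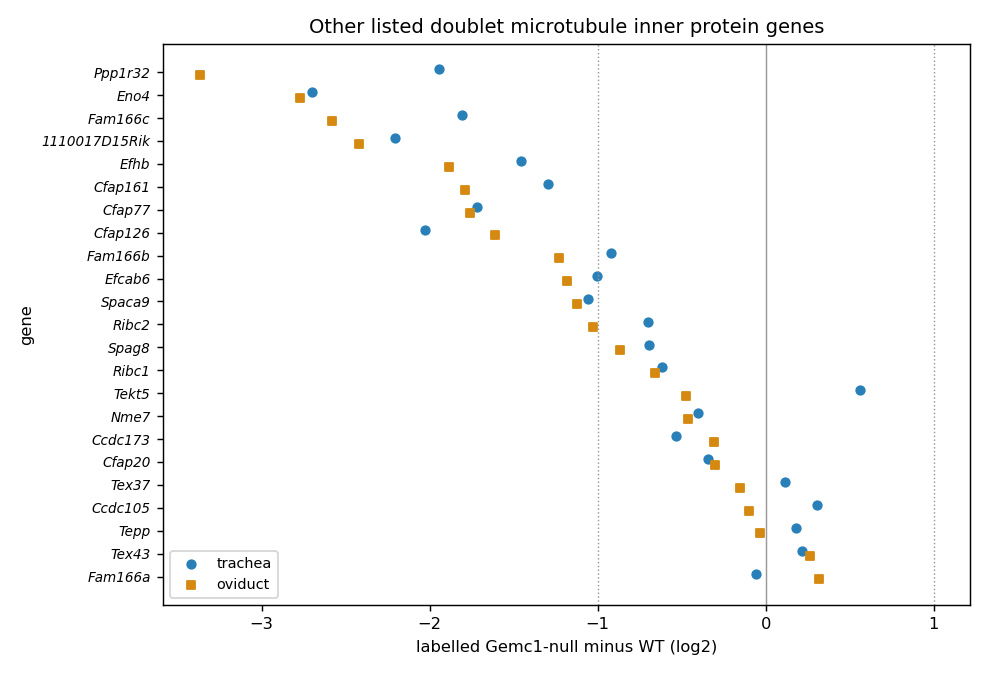
Difference, array labelled Gemc1-null minus WT on the log2 scale, for each of the 23 other inner protein genes in trachea (circles) and oviduct (squares), in order of the oviduct value. Dotted lines mark 2-fold; Ppp1r32 and Eno4 lie furthest below 0, and Tekt5 lies at 0.56 in trachea and -0.48 in oviduct.

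The tubulins, which form the wall that these proteins line, differed less and in both directions. Of 11 listed tubulin genes 10 were measured, 0 passed 2-fold on the lower side in either tissue and 1 was at least 2-fold higher in trachea. That gene, Tuba4a, stood at 11.10 in trachea labelled Gemc1-null and 9.25 in WT trachea, 3.60-fold higher, and differed by 0.49 in oviduct. Tuba1a differed by -0.68 in trachea and -0.86 in oviduct. Tubb4b, the beta-tubulin most tied to axonemes, differed by -0.30 in trachea and -0.81 in oviduct. Tubb5 differed by -0.61 and -0.11, Tubb4a by 0.52 and 0.11, and Tubb2b by -0.06 and -0.48, in trachea and oviduct. The median difference of the tubulins was -0.03 in trachea and -0.33 in oviduct. Tubulin genes are close in sequence, so their probe sets may share signal.

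The genes whose pattern over the 4 arrays was most like the mean pattern of the 10 were found by Euclidean distance between log2 levels, each gene centred on its own mean. The 8 nearest were Dnaaf1 (distance 0.055), Armh1 (0.072), Fank1 (0.094), Ankrd45 (0.094), Akap14 (0.10), Slc25a30 (0.107), Ccdc24 (0.109) and 2310034G01Rik (0.109). Dnaaf1, which encodes a dynein arm assembly factor, stood at 6.60 in trachea labelled Gemc1-null and 7.68 in WT trachea, and at 6.71 in oviduct labelled Gemc1-null and 8.11 in WT oviduct. Among the 10 themselves Mns1 lay nearest to their mean pattern (0.145) and Cfap52 furthest (1.38). The likeness rests on 4 arrays.

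Markers of other cells differed between the same arrays, mainly in trachea. Beside the counts below, 7.77% of the genes that reached the array median in trachea were at least 2-fold lower and 6.31% higher. In oviduct 2.76% were lower and 0.826% higher. Differences and sums of the marker lists use measured levels, also where these were below background. The general epithelial list was at least 2-fold lower in 5 of 6 genes in trachea, with Krt8 at -3.04 and Krt18 at -2.69, and its summed linear signal was 1652 on the array labelled Gemc1-null and 4551 on the WT array. In oviduct 0 of 6 passed 2-fold, and the sums were 8499 on the array labelled Gemc1-null and 7058 on the WT array. Airway secretory genes were lower in 7 of 7 in trachea, with Bpifa1 at -6.97 and Scgb3a1 at -5.79 and summed signals of 878 on the array labelled Gemc1-null and 37905 on the WT array. Genes of squamous epithelium were at least 2-fold higher in 5 of 5 in trachea, skeletal muscle genes in 6 of 6 and basal cell genes in 4 of 5. In WT trachea 3 of the squamous and 3 of the skeletal muscle genes were below background. The basal cell sums were 11872 in trachea labelled Gemc1-null and 2387 in WT trachea. Lymphocyte and adipocyte genes were lower in 4 of 4 each in trachea, and smooth muscle genes in 2 of 4 with 1 higher. In oviduct the ovary somatic list was lower in 5 of 5, with a summed signal of 555 on the array labelled Gemc1-null and 12016 on the WT array, and the oocyte list in 4 of 5. Oviduct secretory genes had 0 of 5 past 2-fold in oviduct (sums 9818 labelled Gemc1-null and 8995 WT). For the 10 genes the summed signals in trachea were 524 on the array labelled Gemc1-null and 1212 on the WT array. In oviduct they were 593 on the array labelled Gemc1-null and 1644 on the WT array. The part of the other cells in the differences of the 10 genes was not tested. The 10 genes are also sperm genes, and of 6 sperm and spermatid markers 0 passed 2-fold in either tissue. Of the 6, 3 were below background in trachea labelled Gemc1-null and 5 in WT trachea, and 2 each in oviduct labelled Gemc1-null and in WT oviduct. Only 2 of the 6 reached the array median in each tissue, so most could hardly show a change. In oviduct 2 differed below 0, Prm1 at -0.50 and Tnp1 at -0.27, and 4 above 0. The part of sperm in the differences was not tested.

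**Figure D4:**
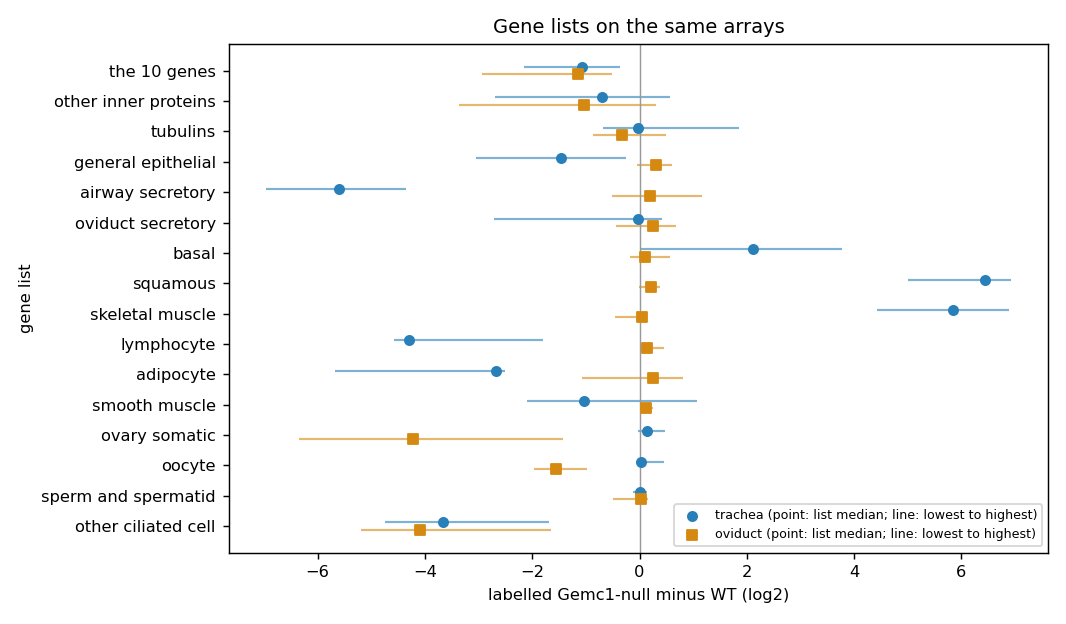
Median difference of each gene list (points) with its lowest and highest gene (lines), array labelled Gemc1-null minus WT on the log2 scale, in trachea (circles) and oviduct (squares). The 10 genes have medians of -1.07 in trachea and -1.15 in oviduct, while airway secretory, squamous and skeletal muscle lists move further from 0 in trachea and ovary somatic genes further in oviduct.

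Other genes of ciliated cells were lower on the same arrays. All 8 listed markers, which hold none of the 10 genes, had levels lower by 2-fold or more in both tissues, with medians of -3.66 in trachea and -4.09 in oviduct. Of the genes that reached the array median in both tissues, 1.31% were lower by that much in both. On the arrays labelled Gemc1-null, 6 of the 8 markers were below background in trachea and 5 in oviduct. Those reached the array median on the WT array only, and the medians use measured levels without the floor. Sntn, a protein of ciliary tips, was at least 12.7-fold lower in trachea and at least 20.6-fold lower in oviduct. Rsph1, a radial spoke protein, differed by -1.69 in trachea and -1.65 in oviduct. The markers were listed with earlier results of these data known.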

How the data were processed

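The deposited values are log2 values from RMA, per the submitters' processing notes. Neither RMA's version and settings nor the array's genome build is given in the sources used here. The values carry a second log2, since 2 to the power of the value had at most 6 significant digits in 100% of cells (relative tolerance 1e-09), against 0.044% as deposited. Levels were computed as that power. Of 65956 transcript clusters, 31354 had 1 gene in the platform annotation, 1396 listed several and 33206 were not listed; symbols were updated through RefSeq (GRCm38.p6). For each gene the probe set with the highest mean was used. The level filter was the array median (percentile 50) on at least 1 of a tissue's 2 arrays. Differences were counted at 2-fold. The shared fit used limma 3.58.1 (R 4.3.3) and Benjamini-Hochberg at 0.05 over all genes passing in either tissue. It was also run on simulated data with the same genotype effect in both tissues, which does not show how it behaves on these arrays. All 10 genes were named; of other lists the 4 largest differences per tissue among genes passing the filter, and any gene at least 2-fold higher, of marker lists up to 2, and the 8 nearest genes. Identity markers of the tissues and genes singled out for contrast (Ovgp1, Scgb1a1, Rsph1, Tekt5) were chosen after their values were seen. The 10 genes, lists and alternatives were chosen with earlier results of these data known. Protein sequences were not used here.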

Additional observations from a re-analysis of the deposited data

Results flagged for a closer look

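The targeted gene Gmnc was picked out because its difference had opposite signs in the tissues. It stood at -1.26 in trachea, where both arrays were below background, and at 2.75 in oviduct, a gap of 4.01 between the tissues that rests on 1 array per group and was not tested. None of the 10 inner protein genes had opposite signs in the tissues.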

How the results depend on the processing

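At a 1.5-fold threshold 7 of the 10 genes were lower in trachea (13.4% of all genes), 9 in oviduct (5.25%) and 7 in both. At 3-fold 2 were lower in trachea (4.35% of all genes), 4 in oviduct (1.36%) and 2 in both. With the negative-control floor these counts were 7, 8 and 7 at 1.5-fold and 1, 3 and 1 at 3-fold. Shares of all genes were not computed for both tissues at 1.5-fold or 3-fold. Nor were they computed under the floor, scaling or probe set alternatives, so those counts have no share beside them. The counts at 2-fold stayed at 6, 5 and 5 with the mean of all probe sets or with arrays centred on their medians. They were 5, 5 and 5 with the negative-control floor, and 4, 5 and 4 with arrays aligned on the negative-control median, which moved the trachea median of all genes passing the filter to 0.27. The median difference of the 10 ran from -1.08 to -0.82 in trachea and from -1.18 to -1.002 in oviduct over the scaling, floor and probe set alternatives. Of the 10 genes' differences only that of Efhc2 in oviduct changed sign, to 0.021 with both levels set to the floor. Both trachea levels of Tekt3 and Efhc2 were also set to the floor. Their values of -0.24 there are only the gap between the floors of the arrays, so their kept sign carries no information. With all 4 arrays the limma fit called 0 of the 10 genes under every alternative run, with lowest adjusted p-values for these genes from 0.299 without the tissue block to 0.676 with arrays aligned on the negative-control median. Leaving out 1 array leaves the fit with the tissue block no residual degree of freedom. Without the block, leaving out each array in turn called 0 of the genes, with lowest limma adjusted p-values from 0.309 to 0.982; there the lone array of a genotype is assumed to vary like the other genotype's pair, and the tissues are unbalanced. The floor at 1.5-fold, at 3-fold and for the other inner proteins, and the fits without 1 array, were added after the data were seen. No paired analysis was possible because each group holds 1 array and the labels give no replicate numbers. Closeness to background limits Tekt3 and Efhc2 in both tissues, and Tekt1, Cfap52, Cfap53 and Enkur on the arrays labelled Gemc1-null.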

Other observations

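Values of the other inner proteins not given above, picked after they were seen, follow. Tekt5, the tektin of the sperm tail, stood at 6.37 in trachea labelled Gemc1-null and 5.81 in WT trachea, and at 5.89 in oviduct labelled Gemc1-null and 6.36 in WT oviduct. Fam166a differed by -0.06 in trachea and 0.31 in oviduct, Tepp by 0.18 and -0.03, and Tex43 by 0.21 and 0.27. Fam166b differed by -0.92 in trachea and -1.23 in oviduct. Spaca9 differed by -1.06 in trachea and -1.12 in oviduct, Cfap20 by -0.34 in trachea and -0.30 in oviduct, and Nme7 by -0.41 and -0.46.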
